A study of Danio rerio with 6 samples.

Results

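The Slc4 genes encode the bicarbonate transporter family, and 15 of the 32057 rows of the deposited count table carry a gene name that begins with slc4a and a number. 14 of these rows are transporter genes. The other is slc4a1ap, which encodes kanadaptin, named as an adaptor of the Slc4a1 protein and not itself a transporter. The name table gives 4 human symbols (SLC4A1, SLC4A2, SLC4A4 and SLC4A5) to 2 zebrafish rows each and does not say which row is the a or the b paralogue. These rows are called first and second here in the order of their IDs. The family was chosen by the measured level of slc4a10a, already known to be higher in the transgenic than in the WT libraries, so the values of slc4a10a are given as a description. It stayed in the fit over all genes, but nothing is read from its test. The other members entered by name alone.

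Cells keep their pH by moving bicarbonate across the membrane, and the Slc4 proteins do this in 3 ways. The anion exchangers (Slc4a1, Slc4a2 and Slc4a3) swap bicarbonate for chloride, the electrogenic cotransporters (Slc4a4 and Slc4a5) carry it with sodium and net charge, and the electroneutral sodium-coupled carriers (Slc4a7, Slc4a8 and Slc4a10) carry it with no net charge. In mammals Slc4a1 is band 3, the main membrane protein of the red cell, which lets bicarbonate leave and enter for carbon dioxide transport and anchors the membrane skeleton. Slc4a4 returns bicarbonate from the proximal tubule to the blood, Slc4a2 is found in many tissues, and Slc4a10 is known mainly from neurons and the choroid plexus.

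Cells of the whole kidney marrow (WKM), the blood-forming organ of adult zebrafish, came from 2 genotypes. WT fish were of the AB strain and carried no transgene. The fish labelled Tg(drl:hoxa9;hsp70:meis1), called Tg here, carry hoxa9 under the draculin element, active in blood cells and other derivatives of the lateral plate mesoderm, and meis1 under a heat shock promoter. Each genotype had 3 samples (n = 3), each a pool of cells from 3 kidneys, of fish about 5 months old by the labels, although a passage of the study's text gives a younger age. The sources used here do not give the heat shock schedule of the sequenced fish. Nothing states that the pools came from separate clutches, so p-values measure the spread between these pools.

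Libraries held 50767535 to 64888212 counts. Levels are CPM, counts scaled to the size of the library and, by TMM, to its composition. CPM are not corrected for gene length, so they are compared between libraries and not between genes. A count of 0 allows a level of up to 0.0457 to 0.0606 CPM in a library, taking 3 counts as the limit, for counting error only. The targeted gene fitted the labels, as hoxa9a read 0, 0.143 and 0.960 CPM in the WT pools and 64.5, 78.1 and 101 CPM in the Tg pools. The tissue fitted its label, with erythroid genes summing to 11280 to 29960 CPM and neutrophil genes to 12948 to 29921 CPM per library. Kidney tubule genes were present as well, and 1 library stood apart: the 27 rows of that list summed to 6937 CPM in WT replicate 1 against 2862 and 3093 CPM in WT replicates 2 and 3 and 1971 to 2382 CPM in Tg. A bulk level does not tell fewer cells of a type from less RNA per cell.

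Of the 15 rows, 13 passed the filter on low counts and were tested with edgeR's quasi-likelihood method among 20123 genes. A gene was called where it differed by 2-fold or more with an FDR, the Benjamini-Hochberg adjusted p over all genes tested, under 0.05. One row, slc4a10a, was called as higher in Tg and none as lower, where 0.199% of all genes tested were called as higher, 0.363% as lower and 0.562% in either direction. With no fold limit the count was the same, beside 0.224% of all genes as higher and 0.373% as lower. The family was chosen for that row, so nothing is read from the count. Directions were mixed. All 3 Tg pools lay above all 3 WT pools in 3 rows (slc4a10a, SLC4A11 and slc4a7), as in 14.0% of all genes tested, and below them in 4 rows (both SLC4A2 rows, the first SLC4A4 row and the second SLC4A5 row), as in 14.1%. Together these were 7 rows whose groups did not overlap, as in 28.1% of all genes tested, and the other 6 tested rows overlapped. An unadjusted p under 0.05 was reached by those 7 rows, and by 19.8% of all genes tested. As slc4a10a, for which the family was chosen, is among the 3 higher rows and the 7, nothing is read from these counts either. The median log2 fold change of the 13 rows was -0.08, beside 0.01 for all genes.

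**Figure D1:**
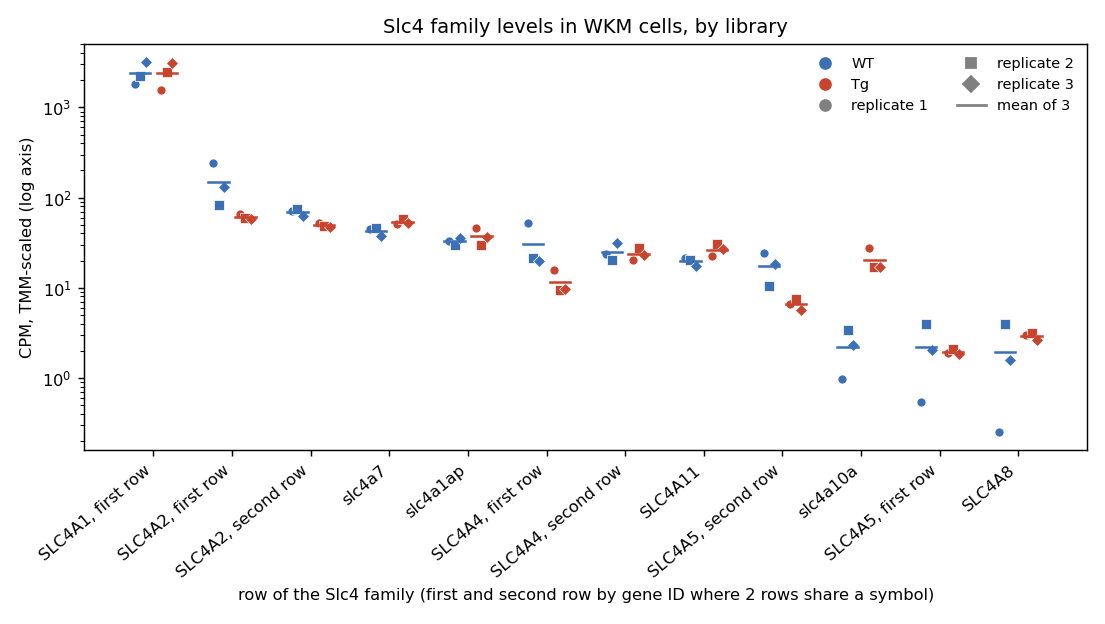
Levels of 12 Slc4 family rows in each of the 6 libraries, in TMM-scaled CPM on a log axis, with the mean of 3 pools as a bar and replicates by marker shape. The first SLC4A1 row stands at 1574 to 3153 CPM in both genotypes, slc4a10a at 0.962 to 3.37 CPM in the WT pools and 16.9 to 27.7 CPM in the Tg pools; levels are not corrected for gene length, so heights are not compared between genes.

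The electroneutral carrier gene slc4a10a (ENSDARG00000063133) read 0.962, 3.37 and 2.33 CPM in WT replicates 1, 2 and 3 and 27.7, 16.9 and 16.9 CPM in Tg replicates 1, 2 and 3. The lowest Tg pool was above the highest WT pool, and WT replicate 1 was the lowest library. In raw counts it was 53, 188 and 153 in WT and 1478, 837 and 1013 in Tg, so its level rested on 837 counts or more in each Tg pool. The mean went from 2.22 ± 1.21 to 20.5 ± 6.22 CPM (SD, n = 3 each), a 9.22-fold difference. Leaving out WT replicate 1, its lowest library, left a log2 fold change of 2.85, against 3.20 with all 6. Both values describe the gene for which the family was chosen, and nothing is read from them. Of the counts of transporter rows other than the first SLC4A1 row, slc4a10a took 0.201, 1.18 and 0.721% in the WT pools and 10.4, 6.44 and 6.93% in the Tg pools.

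The second Slc4a10 row, named SLC4A10 (ENSDARG00000060303), held 4 counts in all, each of them in Tg replicate 2. It was too low to test, and no other library had a read of it. Nearly every count of the Slc4a10 type in WKM was thus a count of slc4a10a. Markers of neurons and chromaffin cells were measured because this type is known from neurons. Of the 13 rows of that list 12 stayed at or below 3.59 CPM in every library, and the pan-neuronal gene ELAVL3 read 0, 0 and 0.384 CPM in Tg. The exception was DDC, the aromatic amino acid decarboxylase, at 815, 287 and 187 CPM in the WT pools and 0.303 to 2.97 CPM in the Tg pools. It was called as lower (log2 fold change -8.16, adjusted p = 0.0364, edgeR quasi-likelihood), beside 0.363% of all genes tested. TH and DBH of the same list reached at most 0.788 and 1.04 CPM in any library. Which cells the DDC counts came from was not tested. Of the genes of stem and progenitor cells, 8 of 10 rows had a positive log2 fold change and 2 a negative one, GATA2 at -0.54 and RUNX1 at -0.08, neither of which passed. The 10 rows summed to 604 to 677 CPM in the WT pools and 1085 to 1281 CPM in the Tg pools, and 4 of the 10 were called as higher (gata2b, cd34, KIT and MEIS1), beside 0.199% of all genes tested. This list was drawn up with earlier results of these data known, and the study had reported gata2b and meis1 as higher. Nothing is therefore read from that count. The regulator gata2b had a mean of 3.91 CPM in WT and 30.2 CPM in Tg, and MEIS1, whose counts may include the meis1 transgene, 24.2 and 61.9 CPM. Taken as a percentage of that sum, slc4a10a was 0.159, 0.498 and 0.348% in WT and 2.55, 1.39 and 1.32% in Tg. These percentages carry the difference for which slc4a10a was chosen, so nothing is read from them. The part that the make-up of the marrow has in the level of slc4a10a was not tested.

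Rows most like slc4a10a over the 6 libraries were sought among 12249 named genes whose mean was 5 CPM or more, by the root mean square difference of log2 CPM after centring each gene on its mean. The nearest was GDA, guanine deaminase, at a difference of 0.267. It read 0.490, 2.67 and 1.59 CPM in the WT pools and 20.3, 11.6 and 7.46 CPM in the Tg pools, with the same lowest and the same highest library as slc4a10a. Others among the nearest were spi2, an ETS factor related to Spi1 (0.363), nanos1, a translational repressor (0.386), and inka1b (0.477). Such a ranking finds genes with a like rise and a like spread among pools, and says nothing of shared control.

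The other electroneutral carriers differed less between genotypes. For slc4a7 (ENSDARG00000073952), the widely expressed sodium-bicarbonate cotransporter of this type, WT pools read 45.2, 46.5 and 37.5 CPM and Tg pools 50.7, 57.5 and 52.8 CPM. The Tg pools were all higher, by 1.24-fold (95% interval 1.0 to 1.55), which did not pass the test (adjusted p = 0.25, edgeR quasi-likelihood). SLC4A8 (ENSDARG00000015531), a sodium-dependent chloride-bicarbonate exchanger of neurons in mammals, read 0.254, 4.0 and 1.58 CPM in the WT pools and 3.00, 3.17 and 2.65 CPM in the Tg pools. Its WT pools spanned the Tg pools on both sides, and the difference did not pass (fold 1.51, interval 0.384 to 5.95, adjusted p = 0.747). Between them the 3 Tg pools held 160, 157 and 159 counts of this gene, where the WT pools held 14, 223 and 104. The coefficient of variation was thus 97.5% among WT pools and 8.98% among Tg pools.

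**Figure D2:**
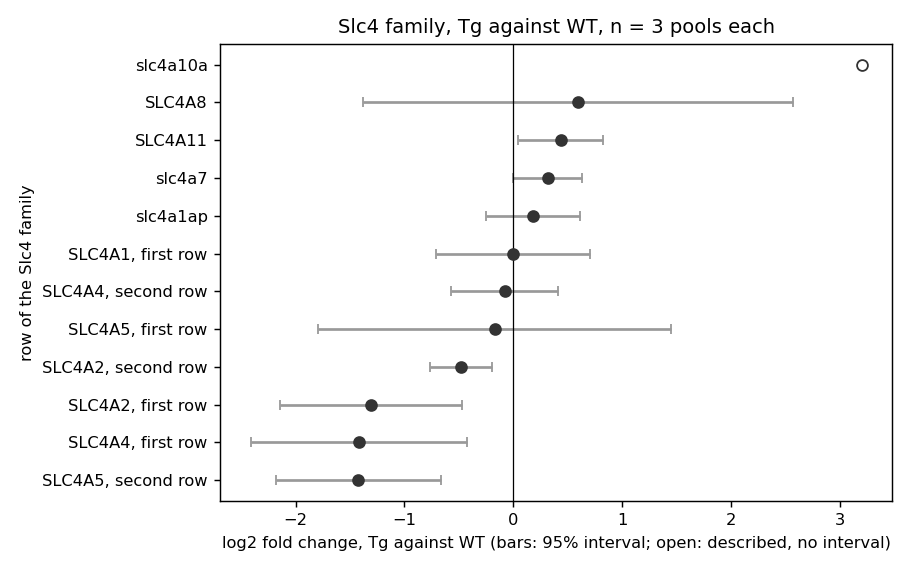
Log2 fold change of Tg against WT (x axis) for the 12 Slc4 family rows with at least 500 counts in all, as points with 95% intervals from the quasi-likelihood fit, n = 3 pools per genotype. slc4a10a stands at 3.20, drawn with no interval as the family was chosen for it, and the first SLC4A1 row stands at 0.00. Intervals lie wholly below 0 for 4 rows (points at -1.42 to -0.48) and wholly above 0 for SLC4A11 (0.44) and slc4a7 (0.32). None of these rows passed at an FDR under 0.05, and 19.8% of all genes tested had an unadjusted p under 0.05.

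The red cell exchanger was the most abundant row of the family by counts and had the same mean in both genotypes. The first SLC4A1 row (ENSDARG00000012881) read 1799, 2219 and 3153 CPM in the WT pools and 1574, 2456 and 3141 CPM in the Tg pools. Each genotype covered almost the same span, with means of 2390 ± 693 and 2390 ± 785 CPM (SD, n = 3 each). The fold was 1.0 with a 95% interval of 0.612 to 1.63 (adjusted p = 1, edgeR quasi-likelihood), so changes within that interval, in either direction, are not excluded. This row held 79.0, 88.6 and 90.7% of all Slc4 transporter counts in the WT pools and 85.5, 90.3 and 92.8% in the Tg pools.

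The spread of this row among pools was shared by some genes of the red cell membrane and its skeleton, but not by all. Its nearest rows were SPTB, the beta spectrin of the red cell, at a root mean square difference of 0.0508 log2, and epb41b, a protein 4.1 gene that links spectrin to the membrane, at 0.0533. Next were the growth factor gene pdgfbb (0.0538), klf1, the transcription factor that drives erythroid genes (0.0758), and SLC43A3 (0.0833). SPTB read 354, 467 and 618 CPM in the WT pools and 324, 530 and 631 CPM in the Tg pools, lowest in replicate 1 and highest in replicate 3 of each genotype, like SLC4A1. As a percentage of the summed level of 13 rows of red cell membrane partners, the first SLC4A1 row was 87.0, 81.8 and 74.5% in WT and 74.5, 74.2 and 81.2% in Tg. None of the 12 of these rows that were tested passed (smallest adjusted p 0.25), and their summed level ran from 2068 to 4234 CPM in the WT pools and from 2115 to 3870 CPM in the Tg pools. The median log2 fold change of the 12 was 0.08, with RHAG lowest at -0.47 and kel highest at 0.81. ANK1 (ENSDARG00000059093), epb41b, RHAG, cahz, GYPC and TMOD4 had the same order of pools as SPTB. In add2, DMTN and kel the lowest WT pool was WT replicate 2 (65.6, 34.8 and 15.4 CPM). In kel, SLC25A37 and tfr1a the highest Tg pool was Tg replicate 2 (48.0, 31.6 and 365 CPM).

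A second SLC4A1 row (ENSDARG00000024560) was nearly silent, with 0, 0 and 40 counts in WT and 16, 0 and 16 in Tg. In 3 of the 6 libraries there was no count, and the fold change could not be read (adjusted p = 0.984). Kanadaptin, slc4a1ap (ENSDARG00000034160), was at 33.2, 29.9 and 35.3 CPM in the WT pools and 45.5, 29.4 and 36.8 CPM in the Tg pools, with overlapping groups (fold 1.13, interval 0.843 to 1.53, adjusted p = 0.633).

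The widely expressed exchanger Slc4a2 was lower in every Tg pool in both of its rows, and neither passed the main test. The first SLC4A2 row (ENSDARG00000028173) read 239, 82.1 and 130 CPM in the WT pools and 65.5, 59.4 and 57.7 CPM in the Tg pools. WT replicate 1 stood far above the other pools, and the Tg pools lay close together. The level in Tg was 0.404 times that in WT (95% interval 0.226 to 0.724, adjusted p = 0.123, edgeR quasi-likelihood). The second SLC4A2 row (ENSDARG00000052330) read 70.6, 73.9 and 62.6 CPM in the WT pools and 52.4, 48.8 and 47.2 CPM in the Tg pools. Here the pools of a genotype agreed closely, with a coefficient of variation of 8.38% in WT and 5.36% in Tg, and WT replicate 1 did not stand out. The level in Tg was 0.716 times that in WT (interval 0.589 to 0.871, adjusted p = 0.109). The third exchanger gene, slc4a3 (ENSDARG00000104005), known from heart and brain in mammals, had 8, 4 and 27 counts in WT and 0, 12 and 0 in Tg and was too low to test.

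The electrogenic cotransporters showed 1 lower row and 1 overlapping row for each symbol. The first SLC4A4 row (ENSDARG00000013730) read 51.8, 21.1 and 19.6 CPM in the WT pools and 15.6, 9.44 and 9.63 CPM in the Tg pools. Every Tg pool was below every WT pool, and WT replicate 1 was more than double the other WT pools. The level in Tg was 0.375 times that in WT (95% interval 0.188 to 0.748, adjusted p = 0.142, edgeR quasi-likelihood). The second SLC4A4 row (ENSDARG00000044808) read 23.4, 20.1 and 31.3 CPM in the WT pools and 20.5, 27.5 and 22.8 CPM in the Tg pools, with overlapping groups (0.947 times, interval 0.675 to 1.33, adjusted p = 0.876).

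For Slc4a5 the second row (ENSDARG00000104387) was the lower one, at 24.2, 10.5 and 18.1 CPM in the WT pools and 6.52, 7.46 and 5.72 CPM in the Tg pools. The groups did not overlap, and the level in Tg was 0.373 times that in WT (interval 0.221 to 0.631, adjusted p = 0.0937, edgeR quasi-likelihood). The first SLC4A5 row (ENSDARG00000002771) read 0.544, 3.93 and 2.06 CPM in the WT pools and 1.89, 2.10 and 1.82 CPM in the Tg pools. Its WT pools lay on both sides of the Tg pools, and it was lowest in WT replicate 1, where the second row was highest (fold 0.890, interval 0.289 to 2.74, adjusted p = 0.922).

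DESeq2 counted 3 of these lower rows as called, the first SLC4A2, the first SLC4A4 and the second SLC4A5 row, at adjusted p of 0.00272, 0.0104 and 0.00163. Over the whole table DESeq2, the tool that the study itself used, called 1132 genes as lower, against 73 in the main fit. It gave a p-value to 25304 genes, some of them with no adjusted p, where the main fit tested 20123. The calls of DESeq2 were thus more frequent throughout, and nothing is read from the 3. DESeq2 gave the second SLC4A2 row an adjusted p of 0.0146 at a log2 fold change of -0.50. Without WT replicate 1 the log2 fold change by edgeR moved from -1.31 to -0.80 for the first SLC4A2 row, from -1.41 to -0.82 for the first SLC4A4 row and from -1.42 to -1.12 for the second SLC4A5 row. That of the second SLC4A2 row moved from -0.48 to -0.47.

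**Figure D3:**
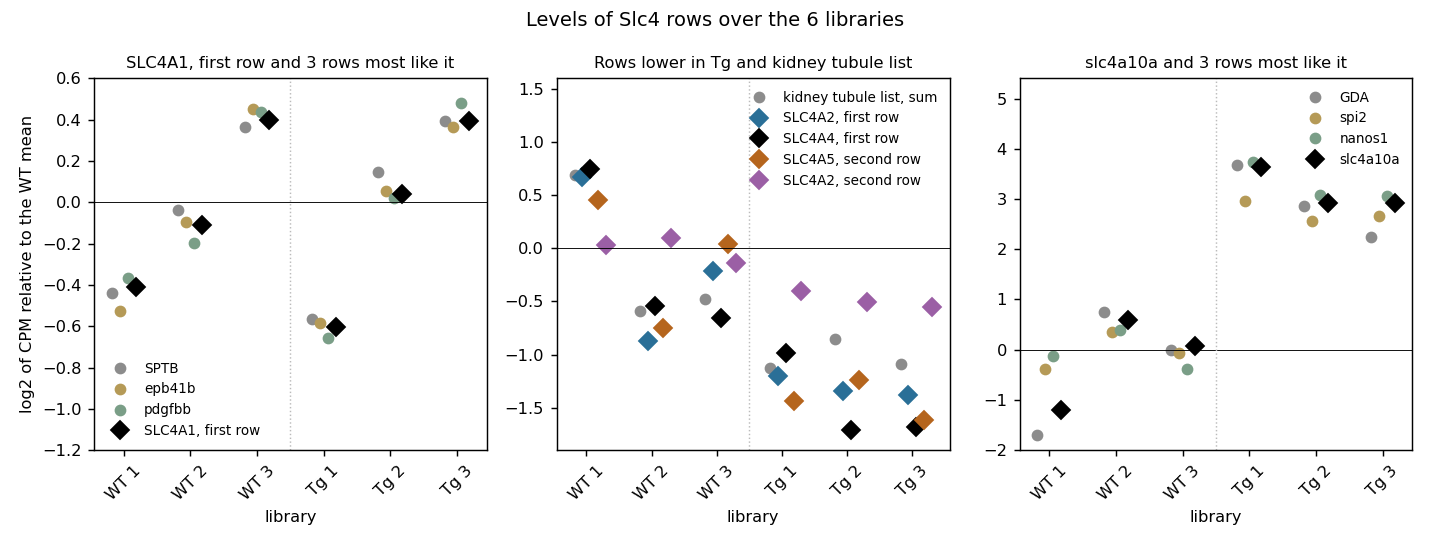
Log2 of CPM relative to the WT mean (y axis) in the 6 libraries (x axis), for the first SLC4A1 row with the 3 rows most like it, for the 4 rows that lay lower in Tg with the summed kidney tubule list, and for slc4a10a with the 3 rows most like it. The first SLC4A2, first SLC4A4 and second SLC4A5 rows and the tubule sum are highest in WT replicate 1 (6937 CPM for the sum), the second SLC4A2 row is not, and slc4a10a is lowest there.

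The summed level of kidney tubule genes, like 3 of the 4 Slc4 rows that lay lower in Tg, was highest in WT replicate 1 and lower in each Tg pool than in any WT pool. Of 19 tubule markers 18 had a name in the table, on 27 rows, of which 3 had no count in any library. Among the 21 rows tested 20 had a negative log2 fold change (median -1.14), and 12 lay lower in every Tg pool than in any WT pool, beside 14.1% of all genes tested. One of the 21, SLC12A3, the thiazide-sensitive cotransporter of the distal tubule, was called as lower (adjusted p = 0.0418, edgeR quasi-likelihood), beside 0.363% of all genes tested, and the other 20 did not pass. TRPM7 stood at -0.02 and the 2 tested KCNJ1 rows at 0.01 and -0.21. The tubule list was drawn up with earlier results of these data known, so nothing is read from these counts. The defining gene CDH17, kidney cadherin, read 1234, 434 and 517 CPM in the WT pools and 292, 396 and 324 CPM in the Tg pools. The first SLC4A4 row was 0.746, 0.739 and 0.632% of the tubule sum in WT and 0.792, 0.396 and 0.478% in Tg, so its groups overlapped on this scale. The first SLC4A2 row was 3.45, 2.87 and 4.21% in WT and 3.32, 2.49 and 2.86% in Tg, overlapping as well. The second SLC4A5 row was 0.349, 0.365 and 0.586% in WT and 0.331, 0.313 and 0.284% in Tg, which did not overlap but lay close. The tubule sum includes 2 SLC20A1 rows, matched by their human symbol. One of them (ENSDARG00000010641) read 375 CPM in WT replicate 1 and 334 CPM in Tg replicate 1, unlike most of the list. Such a narrow gap depends on the rows in the sum, so nothing is read from it. The second SLC4A2 row did not follow the tubule sum, at 1.02, 2.58 and 2.03% in WT and 2.66, 2.05 and 2.34% in Tg. These ratios rest on the same tubule list and are given as a description. The part of tubule cells in the lower rows was not tested.

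The rows nearest to the first SLC4A4 row over the 6 libraries were epn3a, an epsin of endocytosis, at a root mean square difference of 0.113 log2, magixa (0.132), the somatostatin receptor gene sstr5 (0.138), PPP1R1B, an inhibitor of protein phosphatase 1 (0.145), and lurap1 (0.147). Each was highest in WT replicate 1, with epn3a at 33.7 CPM there against 11.8 to 12.6 CPM in the other WT pools and 5.11 to 7.77 CPM in Tg. The rows nearest to the second SLC4A4 row were others, cyp3c1 (0.0492), the splicing regulator MBNL3 (0.0602), ftr14 (0.0625), ORMDL1 (0.0656) and SSH2 (0.0662). Of these, cyp3c1 read 46.3, 42.4 and 62.4 CPM in the WT pools and 41.5, 53.2 and 43.0 CPM in the Tg pools, highest in WT replicate 3 and in Tg replicate 2, as was this SLC4A4 row.

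SLC4A11 (ENSDARG00000075532), the most divergent transporter of the family, known for its role in the corneal endothelium of mammals, read 21.3, 20.1 and 17.3 CPM in the WT pools and 22.6, 30.2 and 26.7 CPM in the Tg pools. All Tg pools were above all WT pools, though Tg replicate 1 only by a little, and the difference did not pass (fold 1.35, 95% interval 1.03 to 1.77, adjusted p = 0.214, edgeR quasi-likelihood).

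Summed over the 14 transporter rows, the family read 2276, 2504 and 3476 CPM in the WT pools and 1841, 2718 and 3385 CPM in the Tg pools, a sum that follows the first SLC4A1 row. Without that row it was 478, 286 and 324 CPM in the WT pools and 267, 263 and 244 CPM in the Tg pools. The Tg pools lay below the WT pools on this scale, as in 14.1% of all genes tested, though 267 and 286 CPM were close. The first SLC4A2 row fell most in mean (151 to 60.9 CPM), with 239 CPM in WT replicate 1. The second SLC4A2, first SLC4A4 and second SLC4A5 rows were lower too, none past the main test. The second SLC4A4 and first SLC4A5 rows overlapped, and slc4a10a was higher. The sum adds levels not corrected for gene length and is a description only.

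Bicarbonate transport works with carbonic anhydrases, which interconvert carbon dioxide and bicarbonate, and with other carriers of acid and base. Of 17 rows named as carbonic anhydrases 11 were tested, and none passed at an FDR under 0.05 in either direction, where 0.596% of all genes tested did. The rows were taken by name alone, and whether each, such as CA8 and CA10, encodes an active enzyme was not checked. Their median log2 fold change was 0.08, beside 0.01 for all genes. The red cell form cahz read 702, 1013 and 1776 CPM in the WT pools and 848, 1301 and 1643 CPM in the Tg pools (adjusted p = 0.896, edgeR quasi-likelihood), with overlapping groups as for the first SLC4A1 row. The smallest p belonged to CA5B, a mitochondrial form, at a log2 fold change of -0.47 (adjusted p = 0.252), ca4c at -1.15 (0.261) and the first CA10 row (ENSDARG00000009568) at -1.14 (0.471). That CA10 row reached at most 1.76 CPM, and the second CA10 row (ENSDARG00000052644) was at 0.57 (0.763).

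None of 8 Slc26 anion exchanger rows tested (of 11), 9 Slc9 sodium-proton exchanger rows (of 10), 5 Rh protein rows (of 5) or 20 V-ATPase subunit rows (of 22) passed either, with medians of -0.24, -0.08, -0.49 and 0.02. Among the Slc26 rows SLC26A1, a sulphate exchanger of the tubule that is also 1 of the tubule markers, had the smallest p. It read 122, 41.9 and 38.3 CPM in the WT pools and 20.8, 22.7 and 23.7 CPM in the Tg pools (log2 fold change -1.59, adjusted p = 0.126, edgeR quasi-likelihood), again highest in WT replicate 1, and by DESeq2 it passed (0.00248). Next were slc26a6 (ENSDARG00000097292) at -1.76 (0.207), on at most 2.43 CPM, and slc26a10 at -1.32 (0.301). Another row of the Slc26a6 type, SLC26A6 (ENSDARG00000054127), read 34.9 to 214 CPM over the libraries and was at -0.09 (0.96).

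Among the Slc9 rows slc9a3.2, a sodium-proton exchanger of the Slc9a3 type, which in mammals works in the apical membrane of the tubule, read 22.3, 30.7 and 36.5 CPM in the WT pools and 12.9, 12.8 and 21.5 CPM in the Tg pools. Its WT level was lowest in WT replicate 1, unlike the tubule sum, and it did not pass (log2 fold change -0.92, adjusted p = 0.142, edgeR quasi-likelihood), but by DESeq2 it did (0.0207). The other row of this type, slc9a3.1 (ENSDARG00000058498), read 242, 36.8 and 88.2 CPM in the WT pools and 113, 174 and 92.4 CPM in the Tg pools. Its groups overlapped, and it was highest in WT replicate 1 (log2 fold change 0.05, adjusted p = 0.977, edgeR quasi-likelihood). SLC9A8 was at 0.36 (0.236). Of the Rh proteins, which carry ammonia, RHBG was at -0.95 (0.25), the second of 3 RHCG rows (ENSDARG00000007080) at -3.08 (0.273), on at most 1.61 CPM, and RHAG, the red cell member, at -0.47 (0.445). The third RHCG row (ENSDARG00000100265), at 24.1 to 75.7 CPM over the libraries, was at -0.49 (0.532). The first RHCG row (ENSDARG00000003203) was at 0.40 (0.82). Among the subunits of the proton pump atp6v1e1b was at -0.34 (0.222), ATP6V1D at -0.25 (0.286) and the second ATP6V1A row (ENSDARG00000076318) at -0.41 (0.357). The first ATP6V1A row (ENSDARG00000034534), at 169 to 212 CPM over the libraries, was at 0.02 (0.959).

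**Figure D4:**
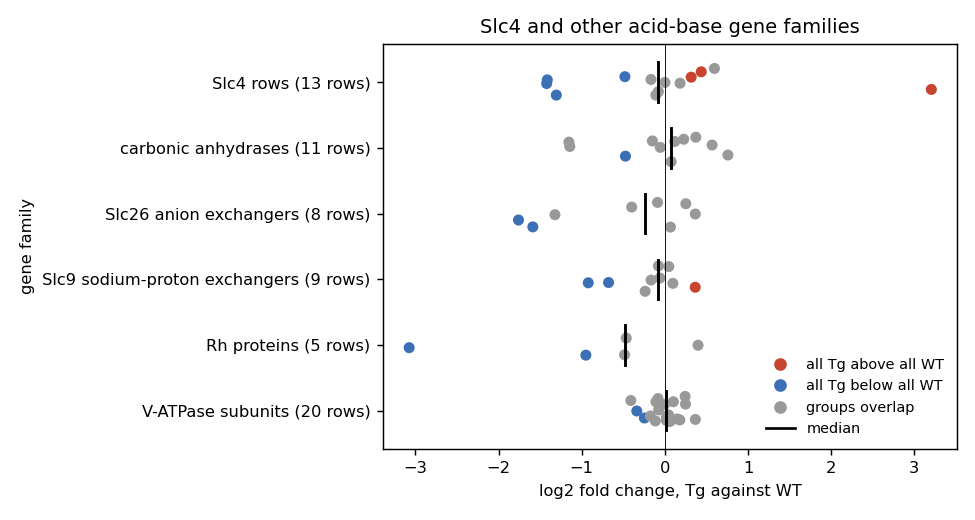
Log2 fold change of Tg against WT (x axis) of each tested row in the Slc4 family and 5 other acid-base gene families, with a bar at the median and colour for rows whose 3 Tg pools all lay above or all below the 3 WT pools. The V-ATPase rows lie between -0.41 and 0.37. slc4a10a stands at 3.20, a value that is shown as a description, as the Slc4 family was chosen for it.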

How the data were processed

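Poly(A) RNA of WKM cells was sequenced in 6 libraries, 3 per genotype. Per the submitters' processing notes and methods, Cutadapt 1.9 removed adapters, HISAT2 2.0.4 placed the reads on GRCz11, StringTie 1.3.4d built the transcripts and DESeq2 served for testing. What the authors deposited is a table of raw counts per gene, in whole numbers. The sources used here do not give the step that made them, or how it treated strand and reads of near-identical copies. Rows sharing a symbol may therefore share reads.

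Of the 32057 IDs, 28988 have a symbol in the name table. Members and acid-base families were found by name alone, cell type markers by their own symbol or that of the human match. The members and lists were chosen with earlier results of these data known. RefSeq coordinates are of another build and were not used, and no sequences are shown.

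Genes were filtered by filterByExpr, scaled by TMM and tested with edgeR 4.0.16 (glmQLFit, glmQLFTest) in R 4.3.3, adjusted by Benjamini-Hochberg. All adjusted p-values are from this quasi-likelihood test unless DESeq2 is named. The standard error is the log2 fold change divided by the root of F, and 95% intervals use the fit's degrees of freedom. Alternatives used DESeq2 1.42.0, limma 3.58.1 (voom), other scaling factors, no filter, a robust fit, the replicate number as a block and leaving out each library. Likeness was computed on log2(CPM + 0.5). Named rows were all members, the 5 rows most like slc4a10a, SLC4A1 and SLC4A4, and in each family the rows past the test or else the 3 with the smallest p. A few rows that this rule takes in are not reported here. Further markers named in the text, and other rows of some named genes, were chosen after their values were seen. The method was tested on simulated data, with 100 genes changed 2-fold and 100 changed 4-fold among 19600 tested. The changed genes all had a mean above 5 CPM, so the recovery does not describe rows at lower levels. Nor does it describe a table in which many more genes differ. At an FDR under 0.05 it recovered 8 of the 2-fold and 72 of the 4-fold changes. There were 8 false calls among 88. Most 2-fold changes were thus missed, so a row that did not pass is not shown to be unchanged.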

Additional observations from a re-analysis of the deposited data

How the results depend on the processing

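The count of 1 Slc4 row called as higher (slc4a10a) became 0 with scaling by library size only and with limma-voom. It was also 0 with the replicate number as a block. When 1 library was left out it ran from 0 to 1 (1 only without WT replicate 1). The log2 fold change of slc4a10a lay between 2.85 and 3.63 in the alternatives. These reuse the libraries by which the gene was chosen, so nothing is read from that range. The count of Slc4 rows called as lower was 0, and 3 with DESeq2, and DESeq2 also put 1 Slc26 row (SLC26A1) and 1 Slc9 row (slc9a3.2) past the test. Over all genes tested 40 were called as higher and 73 as lower, against 280 and 1132 with DESeq2, 23 and 25 with limma-voom and 0 and 1 with the replicate block. Without 1 library the counts ran from 0 to 28 and from 0 to 60, being 2 and 2 without WT replicate 2, 0 and 1 without WT replicate 3, and 0 in both directions when either Tg replicate 2 or Tg replicate 3 was left out (3277 and 2839 genes at an unadjusted p under 0.05). The cause was not tested. The labels do not say whether libraries with the same number belong together. Their deviations correlated over genes at -0.0869, -0.135 and 0.129, and those of libraries with unlike numbers at -0.183 to 0.245. Such correlations do not settle whether the pools were paired, and the intervals given here treat them as unpaired. The log2 fold changes of the first SLC4A5 row, the second SLC4A4 row and both SLC4A1 rows changed sign in some alternatives, always short of the test: the second SLC4A1 row stood at -0.11, and at 6.38 without WT replicate 3, which held most of its counts, and the first SLC4A5 row at -0.17, and at 0.57 without WT replicate 2. With a mean of at least 1 CPM, 3 of the 5 rows most like slc4a10a and 2 of the 5 most like the first SLC4A4 row were among the nearest 5, and all 5 for the first SLC4A1 and second SLC4A4 rows. Shares per kilobase of coding length were not run, as no coding lengths of this build were used.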
